A study of Homo sapiens with 6 samples.

Results

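Iron, ferritin and heme handling was described by 10 of the 17687 genes measured in KHM-5M cells: HMOX1, BLVRB, FTH1, FTL, NCOA4, TFRC, SLC40A1, IREB2, ACO1 and ACSL4. They were chosen by name for their known roles, but with earlier results of these data known. KHM-5M is a human cell line from an anaplastic thyroid cancer. RNA sequencing was done on 2 libraries of control cells and 2 libraries of cells treated with sodium selenite (SS). Another 2 libraries came from cells treated with SS and the antioxidant N-acetylcysteine (SS+NAC). No group received NAC alone, so its own effect cannot be told apart from its effect on SS. The titles carry the number 0 for control and 5 for SS without a unit, and the labels give no exposure time for the sequenced cells. The study asked how SS acts on thyroid cancer cells and whether reactive oxygen species take part, which the SS+NAC group addresses.

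Cells take up iron through the transferrin receptor, store it in ferritin, a shell of heavy and light chains, and release it through ferroportin. Heme oxygenase breaks heme down to biliverdin, carbon monoxide and free iron, and biliverdin reductases turn biliverdin into bilirubin. When iron is scarce, the iron regulatory proteins bind a hairpin called the iron-responsive element: binding in the 5′ untranslated region blocks translation of ferritin and ferroportin, whereas binding in the 3′ untranslated region protects the transferrin receptor mRNA from decay. Ferritin is therefore set largely at translation, which RNA sequencing does not measure, whereas the receptor is set largely through its mRNA.

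Iron-responsive elements of the receptor, the ferritin light chain and ferroportin that a search by letters found are printed. Such elements are the sequences through which iron reaches these mRNAs, and any that depart from the searched pattern would be missed. The letters searched in the untranslated regions of GENCODE release 29 were the loop CAGTGN, here in capitals and with a last base other than G, flanked by 5 bases on each side that can pair (G with T included, at most 1 pair missing) and a C before them. Each hairpin below has 5 of 5 pairs and lies within 1 exon. The TFRC hairpins lie in the 3′ untranslated region on the minus strand of GRCh38, at chr3:196050980-196051006, chr3:196050576-196050602, chr3:196050511-196050537 and chr3:196050464-196050490, in the order printed. The FTL hairpin lies in the 5′ untranslated region on the plus strand at chr19:48965336-48965362, and that of SLC40A1 in the 5′ untranslated region on the minus strand at chr2:189580662-189580688.
TFRC: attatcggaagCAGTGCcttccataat
TFRC: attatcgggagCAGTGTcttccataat
TFRC: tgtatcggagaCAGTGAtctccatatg
TFRC: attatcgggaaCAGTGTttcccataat
FTL: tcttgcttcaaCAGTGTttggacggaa
SLC40A1: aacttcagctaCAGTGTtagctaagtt
The pattern was found in the 5′ region of 167 of 19652 genes (0.85%) and in the 3′ region of 656 (3.3%), and a match is a description of letters. ACO1 and IREB2 each had a 3′ match with 4 of 5 pairs. NCOA4, BLVRB and ACSL4 had no match, and matches of HMOX1 and FTH1 were not listed by gene.

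The libraries summed to 17645545 and 22016655 expected counts in control, 23493415 and 23810056 in SS, and 23682740 and 22617180 in SS+NAC. All 10 iron genes passed the filter on low counts, together with 14005 genes in all. Levels of different genes are given in TPM, the authors' length-corrected unit, which has the same total in every library. The cells expressed the thyroid factor PAX8 at 104 to 134 TPM, but TG, SLC5A5 and NKX2-1 stayed below 1 TPM and FOXE1 lay between 0.55 and 1.59 TPM. KRT8 (977 to 1398 TPM), KRT18 (731 to 1099 TPM) and VIM (5744 to 6621 TPM) were abundant, whereas CDH1 did not exceed 0.29 TPM. Because red cell precursors and macrophages handle much iron, their markers were checked. Of 8 erythroid markers 4 were in the table, and of these only EPOR reached 1 TPM, with 2.70 to 4.24 TPM; HBA2 did not exceed 0.19 TPM and KLF1 was at 0 in 4 libraries. Of 7 leukocyte and macrophage markers 6 were in the table. Their summed level was 85.7 and 90.1 TPM in control, 86.4 and 74.1 TPM in SS and 104 and 114 TPM in SS+NAC, nearly all of it CD68, a lysosomal protein with 70.5 to 109 TPM. CD163 and CD3E were at or near 0 and PTPRC did not exceed 0.77 TPM. CSF1R had 0.78 to 1.36 TPM and CD14 had 1.15 to 2.14 TPM.

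Per unit length, the ferritin chains stood far above the other iron genes. In control, FTL was at 6775 ± 133 TPM (SD, n = 2) and FTH1, the heavy chain that oxidises iron for storage, at 4448 ± 199 TPM. NCOA4, the receptor that delivers ferritin to lysosomes, had 99.7 ± 3.91 TPM and ACSL4, an acyl-CoA synthetase that supplies long polyunsaturated lipids, had 97.8 ± 10.4 TPM. TFRC followed with 62.2 ± 2.76 TPM and BLVRB, a biliverdin and flavin reductase, with 60.8 ± 3.73 TPM. The libraries of NCOA4 and ACSL4 overlapped, as did those of TFRC and BLVRB, so neither pair could be ordered. Below them came ACO1 (34.6 ± 0.990 TPM), HMOX1 (20.6 ± 1.76 TPM), IREB2 (13.4 ± 1.70 TPM) and SLC40A1, ferroportin, at 0.595 ± 0.0495 TPM. In SS, BLVRB took the third place with 87.8 ± 2.17 TPM, above NCOA4 with 73.6 ± 3.77 TPM. In SS+NAC, HMOX1 with 38.7 ± 3.25 TPM overlapped ACO1 with 36.6 ± 2.29 TPM.

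The ferritin pair made up a visible share of the transcripts. Together FTL and FTH1 held 1.15% and 1.10% of all TPM in the control libraries, 1.28% and 1.23% in SS, and 1.45% and 1.57% in SS+NAC. The 3 groups did not overlap in this share. FTL ranked number 5 among all genes by TPM in both control libraries, numbers 4 and 5 in SS, and numbers 3 and 2 in SS+NAC, whereas FTH1 ranked numbers 18 and 22, 16 and 22, and 8 and 4. The TPM ratio of FTL to FTH1 was 1.50 and 1.55 in control, 1.47 and 1.64 in SS, and 1.47 and 1.23 in SS+NAC, so the groups overlapped in the ratio. GENCODE lists 25 pseudogenes named after FTH1 and 16 named after FTL, none of which is in the table of genes. How reads from such copies were assigned was not tested, and the counts of both genes are uncertain to that extent.

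**Figure D1:**
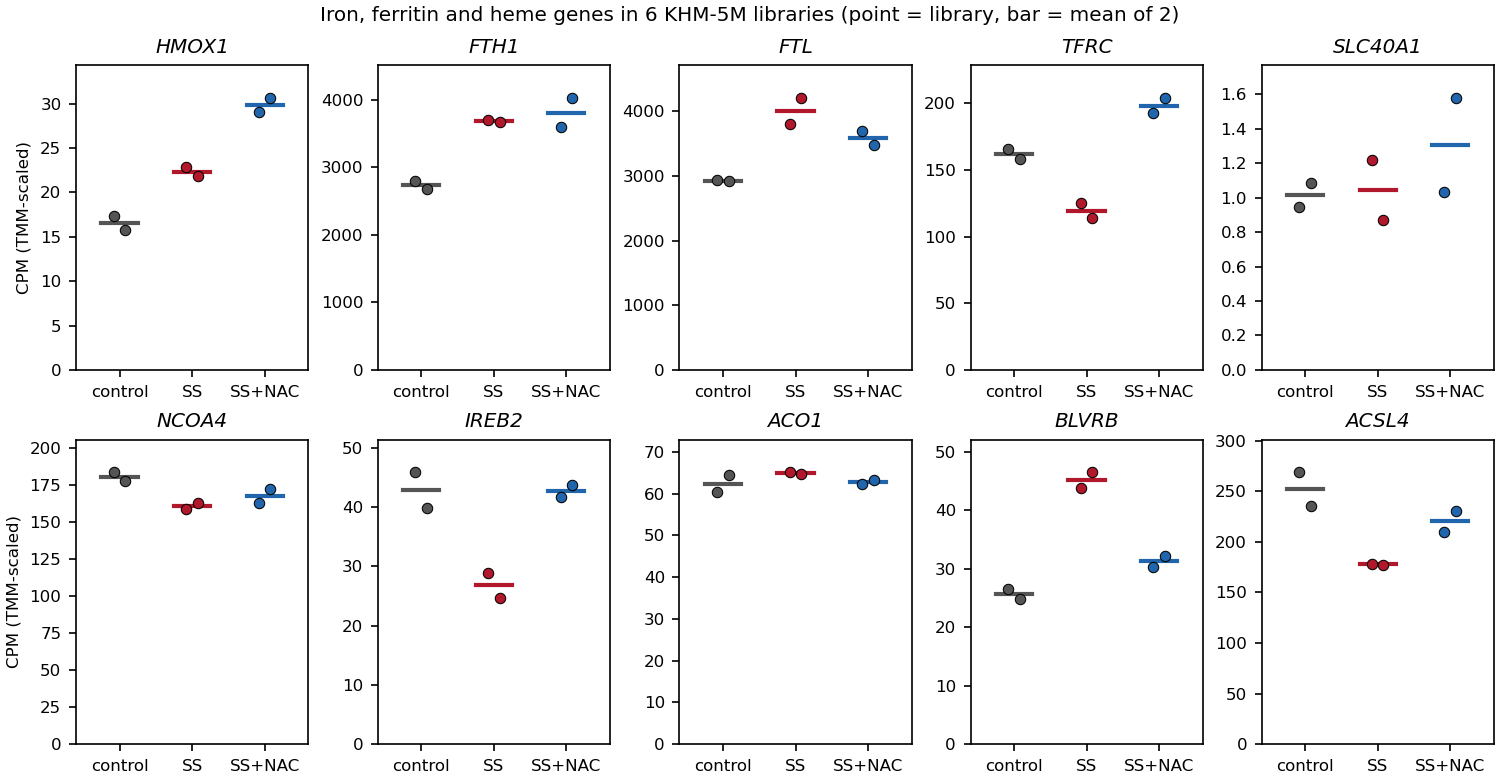
Level of each iron gene in the 6 libraries, in CPM after TMM scaling (linear axis from 0, its range set for each gene). Points are libraries and bars are means of 2 libraries. HMOX1 steps up from control (15.7 and 17.4 CPM) through SS (21.8 and 22.8) to SS+NAC (29.1 and 30.7), whereas TFRC and IREB2 are lowest in SS.

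The values that follow are CPM, counts divided by the library size after scaling by the trimmed mean of M values (TMM), which suit comparisons of 1 gene between libraries. HMOX1, the inducible heme oxygenase (chr22:35380361-35394214, plus strand), had 17.4 and 15.7 CPM in control. Values of 22.8 and 21.8 CPM were found in SS and of 29.1 and 30.7 CPM in SS+NAC. Its 3 groups did not overlap in CPM and stood in that order. In TPM control (21.87 and 19.38) and SS (24.55 and 21.35) overlapped, and SS+NAC (36.42 and 41.02) stood above both. BLVRB (chr19:40447765-40465840, minus strand) had 26.6 and 24.9 CPM in control. It had 43.8 and 46.5 CPM in SS and 30.3 and 32.2 CPM with NAC added. It was highest in both SS libraries, and the SS+NAC libraries lay between the other groups.

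FTH1 (chr11:61959718-61967660, minus strand) had 2802 and 2686 CPM in control. The SS libraries had 3699 and 3666 CPM and the SS+NAC libraries 3593 and 4030 CPM. FTL (chr19:48965301-48966878, plus strand) had 2936 and 2916 CPM in control. In the treated cells it had 3800 and 4209 CPM (SS) and 3695 and 3478 CPM (SS+NAC). Both chains were lowest in the control libraries. In CPM, SS and SS+NAC overlapped in FTH1, whereas in FTL both SS libraries stood above both SS+NAC libraries. In TPM both SS libraries stood below both SS+NAC libraries in FTH1 (5180 and 4670 in SS, 5856 and 7025 in SS+NAC) and in FTL (7603 and 7660 in SS, 8606 and 8661 in SS+NAC). NCOA4 (chr10:46005088-46030714, minus strand) had 183 and 177 CPM in control. The SS libraries had 159 and 163 CPM and the SS+NAC libraries 163 and 172 CPM.

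TFRC (chr3:196027183-196082189, minus strand) had 166 and 158 CPM in control. The SS libraries had 125 and 114 CPM and the SS+NAC libraries 192 and 204 CPM. Its groups did not overlap, with SS lowest and SS+NAC highest. The ratio of FTH1 counts to TFRC counts in a library was 16.9 and 17.0 in control, 29.6 and 32.2 in SS, and 18.7 and 19.8 in SS+NAC. It sets a short transcript (1216 bases) against a long one (5084 bases). With the length offset described below, FTH1 was at 0.050 and TFRC at -0.15 in SS against control, against 0.42 and -0.44 without it. SLC40A1 (chr2:189560579-189583758, minus strand), the exporter, rested on 17 and 24 counts in control, 28 and 19 in SS, and 25 and 38 in SS+NAC. All its groups overlapped, and at this depth a difference of the size seen in the other genes was not detectable for it.

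IREB2 (chr15:78437431-78501456, plus strand) encodes iron regulatory protein 2, which is degraded when iron is plentiful. It had 45.9 and 39.8 CPM in control. Its SS libraries had 28.8 and 24.7 CPM, and those of SS+NAC 41.7 and 43.6 CPM. Both SS libraries were low, and control and SS+NAC overlapped. ACO1 (chr9:32384603-32454769, plus strand), a cytosolic aconitase that becomes iron regulatory protein 1 on losing its iron-sulfur cluster, had 60.3 and 64.4 CPM in control. The SS libraries had 65.2 and 64.8 CPM and the SS+NAC libraries 62.4 and 63.3 CPM. All its libraries lay close together. ACSL4 (chrX:109624244-109733403, minus strand), known for making lipids open to iron-dependent peroxidation, had 269 and 236 CPM in control. The SS libraries had 179 and 178 CPM and the SS+NAC libraries 210 and 231 CPM. Its groups did not overlap, with control highest. In GENCODE, FTH1 overlaps BEST1, IREB2 an antisense RNA, and TFRC and ACSL4 pseudogenes, all on the opposite strand, while ACSL4 overlaps KCNE5 on the same strand. Whether the counting used strand is not given in the sources used here, so reads of such overlapping genes cannot be told apart.

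SS was compared with control to ask how selenite changed the cells. In SS, the genes of heme breakdown and ferritin rose: BLVRB, HMOX1, FTH1 and FTL. TFRC, IREB2 and ACSL4 fell, and SLC40A1, NCOA4 and ACO1 were not called. Thus 7 of 10 iron genes were called, 4 higher and 3 lower, which means an adjusted p no larger than 0.05 in the quasi-likelihood test of edgeR, adjusted by the Benjamini-Hochberg method. Over all tested genes 40.0% were called, 18.6% higher and 21.4% lower, and the median log2 fold change was 0.048 over the iron genes and 0.0030 over all tested genes. The groups did not overlap in 9 of the 10 iron genes, against 73.2% of all tested genes. The p-values set each difference against a spread between replicates that was estimated over all 6 libraries together and partly shared between genes. Each group has 2 libraries, which the study's methods call biological replicates.

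BLVRB rose the most among the iron genes, by 0.81 on the log2 scale (SE 0.0828, edgeR adjusted p = 0.000146), higher in both SS libraries than in both control libraries. HMOX1 rose by 0.43 (SE 0.0939, edgeR adjusted p = 0.00466), FTL by 0.45 (SE 0.0882, edgeR adjusted p = 0.00273) and FTH1 by 0.42 (SE 0.0886, edgeR adjusted p = 0.00388). The rises of these 3 genes were alike within their standard errors. IREB2 fell by 0.68 on the log2 scale (SE 0.100, edgeR adjusted p = 0.000708), ACSL4 by 0.50 (SE 0.0857, edgeR adjusted p = 0.00136) and TFRC by 0.44 (SE 0.0784, edgeR adjusted p = 0.00173). Each of the 3 was lower in both SS libraries. NCOA4 had a log2 fold change of -0.17 (edgeR adjusted p = 0.0918), ACO1 of 0.059 (edgeR adjusted p = 0.556) and SLC40A1 of 0.037 with a standard error of 0.351. NCOA4 was called when only the SS and control libraries were fitted (edgeR adjusted p = 0.0436).

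These changes went with transcript length. Across the 14005 tested genes, which are not independent replicates, the log2 fold change of SS against control fell with the effective transcript length, with a Spearman correlation of -0.68. The iron genes that rose were the 4 shortest, BLVRB (836 bases), FTL (851), FTH1 (1216) and HMOX1 (1584). Those that fell were the 3 longest, TFRC (5084), ACSL4 (5099) and IREB2 (6350), and those not called lay between, from 3336 to 3559 bases. The cause of the trend was not tested. When a length trend fitted in each library was entered as an offset, 9.23% of all genes were called, and of the iron genes only BLVRB, with a log2 fold change of 0.34 (SE 0.0854, edgeR adjusted p = 0.0361). With the offset HMOX1 was at 0.15 (edgeR adjusted p = 0.357), FTH1 at 0.050 (edgeR adjusted p = 0.753) and FTL at -0.018 (edgeR adjusted p = 0.883). TFRC was at -0.15 (edgeR adjusted p = 0.206), ACSL4 at -0.21 (edgeR adjusted p = 0.122) and IREB2 at -0.28 (edgeR adjusted p = 0.0801). The offset kept the sign of these genes except FTL. The call of BLVRB with the offset was lost without control replicate 1 (edgeR adjusted p = 0.138), control replicate 2 (0.242), SS replicate 1 (0.186) or SS replicate 2 (0.125). When SS+NAC replicate 1 or 2 was left out with the offset, IREB2 (edgeR adjusted p = 0.0291 and 0.0337) and ACSL4 (0.0463 and 0.0473) were called beside BLVRB, with 2475 and 2448 genes in all against 1292. Without the offset, the 7 calls were made in each fit that left out a library.

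**Figure D2:**
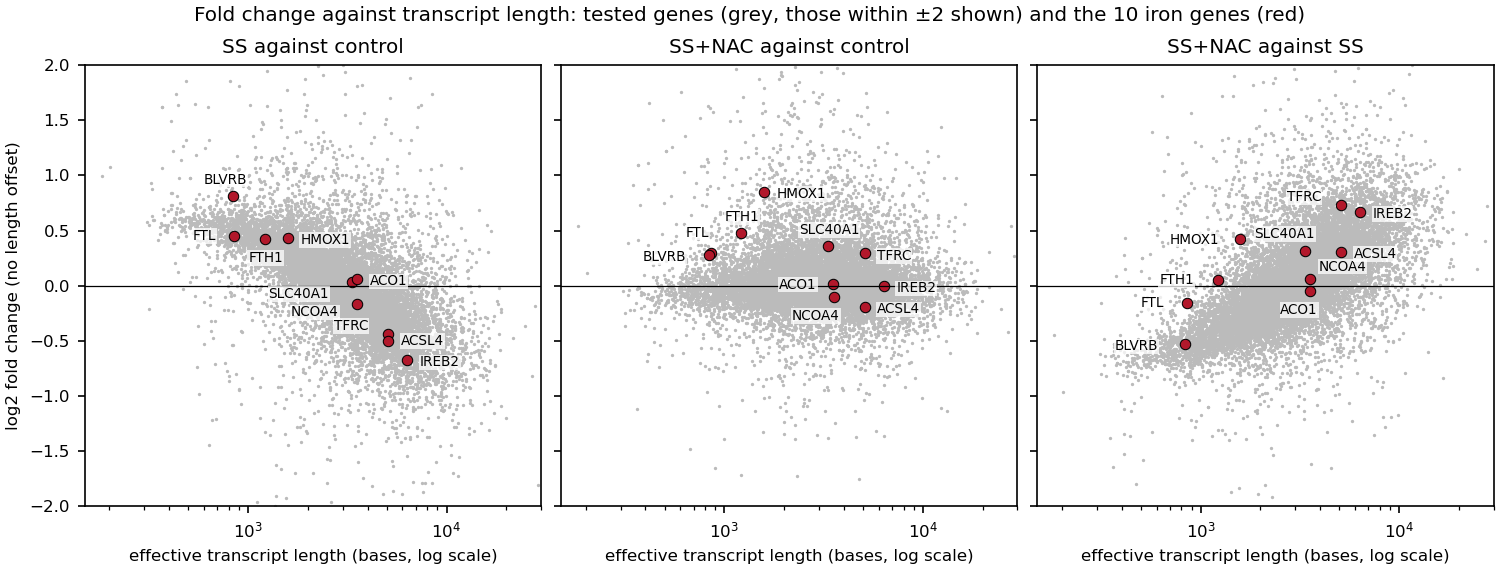
Log2 fold change without the length offset against effective transcript length (log axis) for the tested genes (grey, those within ±2) and the 10 iron genes (red), in the 3 comparisons. In SS against control the short BLVRB (836 bases) lies high and the long IREB2 (6350 bases) low along the grey band, which has a Spearman correlation of -0.68. It is flat in SS+NAC against control (-0.038) and turned round in SS+NAC against SS (0.64), where HMOX1 lies at the upper edge of the band for its length.

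SS+NAC was compared with control to ask what remained of the response when NAC was present. HMOX1 and FTH1 rose, and the other 8 iron genes were not called. The count of 2 of 10 stands against 2.01% of all tested genes in either direction and 1.36% higher. Because the genes were chosen with earlier results of these data known, this contrast is a description. Here fold changes had almost no relation to length (Spearman correlation of -0.038 over 14005 genes). The groups did not overlap in 7 of the 10 iron genes, against 47.6% of all genes, and the median log2 fold change was 0.29 over the iron genes and -0.0024 over all genes.

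HMOX1 rose by 0.85 on the log2 scale (SE 0.0917, edgeR adjusted p = 0.000789), and with the length offset by 0.84 (edgeR adjusted p = 0.00148). It passed the threshold under the 14 alternatives listed in advance and the 6 added later. FTH1 rose by 0.47 (SE 0.0886, edgeR adjusted p = 0.0231), and with the offset likewise by 0.47 (edgeR adjusted p = 0.0166). Its call rests on few libraries: the edgeR adjusted p was 0.197 without control replicate 1, 0.308 without control replicate 2 and 0.0650 without SS+NAC replicate 2. With the offset it was 0.102 and 0.203 without control replicates 1 and 2, and the call was made when any other library was left out. FTL had a log2 fold change of 0.29 (SE 0.0881, edgeR adjusted p = 0.138), and 0.31 with the offset, where it was called (edgeR adjusted p = 0.0270). So 3 of 10 iron genes were called with the offset, against 2.01% of all genes. That of FTL was lost without control replicate 1 (edgeR adjusted p = 0.196), control replicate 2 (0.322), SS replicate 1 (0.0748) or SS replicate 2 (0.0680). FTL was also called by DESeq2 without the offset (adjusted p = 0.0379, against 0.138 by edgeR).

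The remaining genes stayed short of the threshold in this comparison. TFRC had a log2 fold change of 0.29 (edgeR adjusted p = 0.0981) and BLVRB of 0.28 (edgeR adjusted p = 0.137), with both SS+NAC libraries above both control libraries in each. Without SS+NAC replicate 1, TFRC was called with and without the offset (edgeR adjusted p = 0.0135 and 0.0278) and BLVRB with it (0.0172). ACSL4 had -0.20 (edgeR adjusted p = 0.293) and NCOA4 -0.10 (edgeR adjusted p = 0.499). IREB2 and ACO1 were closest to control, at -0.0048 and 0.011 on the log2 scale with standard errors of 0.0970 and 0.0725. SLC40A1 had 0.36 with a standard error of 0.336.

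SS+NAC was compared with SS to ask what NAC changed in treated cells. TFRC, IREB2, HMOX1 and ACSL4 rose and BLVRB fell, so 5 of 10 iron genes were called, 4 higher and 1 lower. Among all genes 42.7% were called, 23.1% higher and 19.6% lower. The groups did not overlap in 8 of the 10 iron genes, against 70.4% of all genes, and the median log2 fold change was 0.18 over the iron genes and 0.034 over all genes. This comparison shares the SS libraries with SS against control and the SS+NAC libraries with SS+NAC against control, so the 3 sets of values are not independent of each other.

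TFRC rose by 0.73 on the log2 scale (SE 0.0782, edgeR adjusted p = 0.000220) and IREB2 by 0.67 (SE 0.0994, edgeR adjusted p = 0.000664). HMOX1 rose by 0.42 (SE 0.0881, edgeR adjusted p = 0.00367) and ACSL4 by 0.31 (SE 0.0855, edgeR adjusted p = 0.0148). BLVRB fell by 0.53 (SE 0.0804, edgeR adjusted p = 0.000737). So HMOX1 stood higher with NAC than without it, whereas BLVRB stood lower, though with the length offset its difference was -0.040 (edgeR adjusted p = 0.779). ACSL4 was not called without SS replicate 1 (edgeR adjusted p = 0.0570), SS replicate 2 (0.0794) or SS+NAC replicate 2 (0.0543). FTH1 had a log2 fold change of 0.050 and FTL of -0.16, neither called (edgeR adjusted p = 0.688 and 0.174).

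The length trend ran the other way in this comparison, with a Spearman correlation of 0.64 over all tested genes. With the offset 14.4% of all genes and 4 iron genes were called, all higher: HMOX1 at 0.68 (edgeR adjusted p = 0.00183), TFRC at 0.45 (edgeR adjusted p = 0.00322), FTH1 at 0.42 (edgeR adjusted p = 0.00973) and FTL at 0.33 (edgeR adjusted p = 0.00667). HMOX1 was called with and without the offset and in every fit that left out a library. TFRC was called in every fit except, with the offset, without SS replicate 2 (edgeR adjusted p = 0.0523). With the offset, FTH1 was not called without SS replicate 2 (edgeR adjusted p = 0.123), nor FTL without SS replicate 1 (0.0575) or SS replicate 2 (0.0816), and FTL turned its sign. IREB2 at 0.30 (edgeR adjusted p = 0.0505), ACSL4 at 0.020 (edgeR adjusted p = 0.884) and BLVRB at -0.040 (edgeR adjusted p = 0.779) lost their calls with it, though IREB2 was called without SS+NAC replicate 1 (0.0296).

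**Figure D3:**
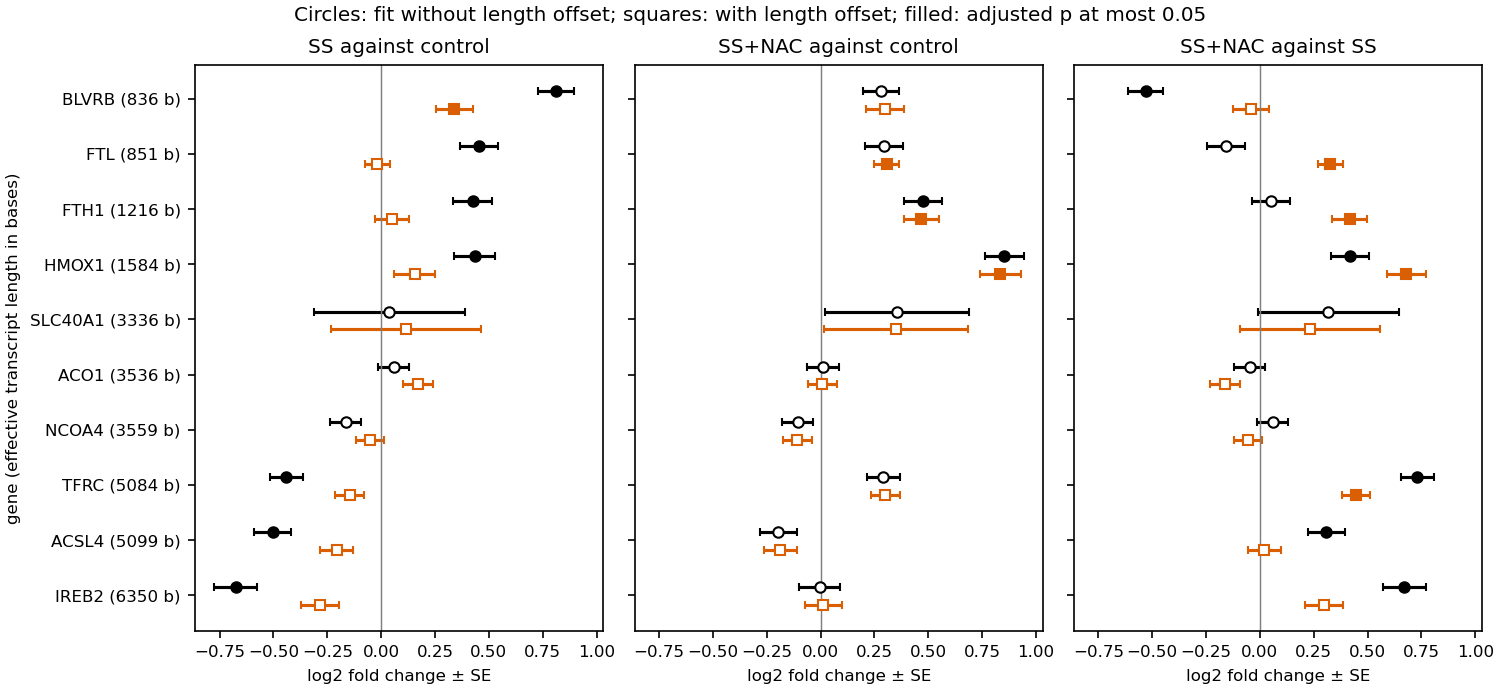
Log2 fold change and standard error of the 10 iron genes in the 3 comparisons, ordered by effective transcript length, without (black circles) and with (orange squares) the length offset. Filled symbols have an edgeR adjusted p of at most 0.05. HMOX1 is filled in both fits in the comparisons with SS+NAC (0.85 and 0.84 against control, 0.42 and 0.68 against SS), whereas in SS against control only BLVRB is filled in both (0.81 and 0.34).

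Further genes of iron and heme handling were taken from 8 lists by function, also chosen with earlier results of these data known. The lists hold 94 genes outside the 10. Of these 90 were in the table and 83 were tested; SCARA5, FTMT, HEPH and ALOX15B were not analysed here. In SS against control 27 rose and 12 fell, 47.0% in all against 40.0% of all genes. Many of these calls, higher and lower, were lost without SS replicate 2, where fewer of all genes were called too. With the offset 7 of the 83 were called higher and 2, SLC39A8 and STEAP1, lower, against 9.23% of all genes. ALAS1 and MAFG rose in SS+NAC against control (2.41%, against 2.01% of all genes). Between SS+NAC and SS 15 rose and 29 fell, 53.0% in all against 42.7% of all genes. Some of these calls, higher and lower, were likewise lost without SS replicate 2. With the offset 4 of the 83 (ABCB6, ALAS1, MAFG and NFE2L2) were called higher and 11 lower, against 14.4% of all genes. The 4 calls were lost without SS replicate 1 (edgeR adjusted p from 0.0537 to 0.104) or SS replicate 2 (0.0968 to 0.147), and that of NFE2L2 also without SS+NAC replicate 2 (0.0672). The median log2 fold changes of these genes were 0.13, 0.0038 and -0.050, against 0.0030, -0.0024 and 0.034 over all tested genes.

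Of 28 genes that assemble iron-sulfur clusters, 18 rose and 1, NUBPL, fell in SS against control. Over all tested genes 18.6% rose and 21.4% fell. The median log2 fold change of the 28 was 0.36, or 0.12 with the length offset, and their median effective length was 2081 bases. With the offset most of these calls were lost, and 3 of the 28 were called higher and 0 lower, against 9.23% of all genes called. BOLA3 rose by 0.58 (edgeR adjusted p = 0.0110, but 0.0995 without SS replicate 2), ISCA2 by 0.56 (edgeR adjusted p = 0.00174) and NUBP1 by 0.56 (edgeR adjusted p = 0.00120), and none of the 3 was called with the offset. Genes of the list called higher with the offset included the ferredoxin FDX1 at 0.52 (edgeR adjusted p = 0.00688) and CIAO1 at 0.27 (edgeR adjusted p = 0.0317). The call of FDX1 was lost without control replicate 1 (0.0945), SS replicate 1 (0.0527) or SS replicate 2 (0.0602), and that of CIAO1 without control replicates 1 (0.173) and 2 (0.257) or SS replicates 1 (0.140) and 2 (0.198). NUBPL was not called when each of these 4 libraries was left out (edgeR adjusted p = 0.0639, 0.230, 0.0820 and 0.110).

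Of the 28, 20 fell in SS+NAC against SS, where 19.6% of all genes fell, and 9 were called lower with the offset, against 14.4% of all genes called in either direction. The median log2 fold change was -0.38, or -0.17 with the offset. Of the 9 calls with the offset, 8 were lost without SS replicate 2 (edgeR adjusted p from 0.0785 to 0.357) and 7 without SS replicate 1 (0.0636 to 0.202). Without control replicate 1 (0.0501 to 0.104), control replicate 2 (0.05003 to 0.102) or SS+NAC replicate 2 (0.0584 to 0.182) 6 were lost. BOLA3 was at -0.71 on the log2 scale, ISCA2 and GLRX5 at -0.61 and NUBP1 at -0.56. With the offset BOLA3 was at -0.070 (edgeR adjusted p = 0.698), ISCA2 at -0.20 (0.130) and NUBP1 at -0.21 (0.0993), no longer called. GLRX5 was called at -0.22 (edgeR adjusted p = 0.0422), but not without control replicate 1 (0.104), control replicate 2 (0.102), SS replicate 1 (0.123), SS replicate 2 (0.246) or SS+NAC replicate 2 (0.0816). HSPA9, the most abundant of the list with a mean of 317 TPM, was not called in SS against control (0.046), SS+NAC against control (-0.0038) or SS+NAC against SS (-0.050).

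In the heme synthesis list of 12 tested genes, TMEM14C, UROD and ALAS1 rose and ABCB10 fell in SS against control, where 18.6% of all genes rose and 21.4% fell. ALAS1, the rate-limiting enzyme outside red cells, had a mean of 69.2 ± 3.82 CPM (SD, n = 2) in control, against 88.8 ± 0.641 CPM in SS, while SS+NAC had 107 ± 6.95 CPM, the same order of group means as HMOX1. It rose by 0.36 (SE 0.0789, edgeR adjusted p = 0.00497) in SS, where the call was lost without control replicate 1 (0.0799) and with the offset (0.0723). Relative to control, it rose by 0.62 in SS+NAC (SE 0.0785, edgeR adjusted p = 0.00251), and with the offset by 0.61 (edgeR adjusted p = 0.00233). These calls were lost only without control replicate 1 (edgeR adjusted p = 0.0511, and 0.0552 with the offset). TMEM14C, a mitochondrial carrier of heme precursors and the most abundant of the list (337 TPM), rose by 0.58 in SS and was at -0.55 in SS+NAC against SS, and neither difference was called with the offset.

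Of 10 tested genes of heme breakdown and transport, HMOX2 and BLVRA rose and SLC46A1 and FLVCR1 fell in SS, against 40.0% of all genes called, and none was called with the offset. HMOX2, the constitutive heme oxygenase, was at 0.44 (edgeR adjusted p = 0.00903, but 0.0807 without control replicate 1 and 0.0981 without SS replicate 2). SLC46A1, a carrier of heme and folate, lost its call without control replicate 1 (edgeR adjusted p = 0.0950), control replicate 2 (0.0584) or SS replicate 2 (0.0954). BLVRA, the other biliverdin reductase, was at 0.55 and FLVCR1, a heme exporter, at -0.46. Between SS+NAC and SS HMOX2 was at -0.55, BLVRA at -0.61 and FLVCR1 at 0.56, called without the offset and not with it. The heme transporter SLC48A1 was not called in any comparison (0.30, 0.48 and 0.18), nor was PGRMC1, the most abundant of the list at 189 TPM (0.11, -0.047 and -0.15). ABCB6, a porphyrin transporter, rose by 0.65 in SS+NAC against SS (edgeR adjusted p = 0.00467), and by 0.62 with the offset (edgeR adjusted p = 0.0184, but 0.0928 and 0.0968 without SS replicates 1 and 2).

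Of 6 regulators of HMOX1 transcription, MAFF rose and BACH1 fell in SS against control (40.0% of all genes were called), with MAFF at 0.49 (edgeR adjusted p = 0.000715). With the offset MAFF was at 0.38 (edgeR adjusted p = 0.00960, but 0.111 and 0.0891 without control replicates 1 and 2, and 0.101 without SS replicate 1). MAFG, a small MAF protein that pairs with both NRF2 and BACH1, rose by 0.60 in SS+NAC against control (SE 0.0731, edgeR adjusted p = 0.00204). With the offset it rose by 0.61, and it was called in each fit that left out a library, with or without the offset. In SS+NAC against SS it rose by 0.65 (SE 0.0729, edgeR adjusted p = 0.000258), and by 0.36 with the offset (edgeR adjusted p = 0.00864, but 0.0537 and 0.0969 without SS replicates 1 and 2). NFE2L2, which encodes the activator NRF2, was at -0.23 in SS against control (not called) and rose by 0.37 in SS+NAC against SS (edgeR adjusted p = 0.00692). With the offset the latter was 0.35 (edgeR adjusted p = 0.0221, but 0.104, 0.147 and 0.0672 without SS replicate 1, SS replicate 2 and SS+NAC replicate 2). BACH1, the repressor, was at -0.48 in SS against control, lost without control replicate 1 (0.0807) or SS replicate 2 (0.112), and at 0.43 in SS+NAC against SS, lost without SS replicate 2 (0.164) or SS+NAC replicate 2 (0.0694). Neither was called with the offset. In SS+NAC against SS MAFF was at -0.23 (edgeR adjusted p = 0.0237). That call was lost with the offset (-0.14, edgeR adjusted p = 0.194). It was also lost without control replicate 1, SS replicate 1, SS replicate 2 or SS+NAC replicate 2. KEAP1, the most abundant of the list (66.2 TPM), was not called in any comparison (0.13, 0.13 and -0.0049).

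In the uptake list of 11 tested genes, STEAP2, SLC39A14 and SLC39A8 fell in SS, and CYBRD1, STEAP2, SLC39A14 and SLC11A2 rose in SS+NAC against SS. Of all genes 40.0% and 42.7% were called in these comparisons. The metalloreductase STEAP2 was at -0.61 in SS, a call lost without control replicate 1 (edgeR adjusted p = 0.145), SS replicate 1 (0.0531) or SS replicate 2 (0.0941), and at 0.89 in SS+NAC against SS. SLC39A14, an importer of zinc and iron and the most abundant of the list (40.9 TPM), was at -0.52 and 0.51. Neither gene was called with the offset. In SS+NAC against SS, CYBRD1 was at 0.17 (edgeR adjusted p = 0.303) and SLC11A2 at 0.30 (edgeR adjusted p = 0.0613) with it, also not called. Of the others, the call of SLC39A8 was lost without control replicate 1 (edgeR adjusted p = 0.113), SS replicate 1 (0.0516) or SS replicate 2 (0.0686). With the offset SLC39A8 was called at -0.36 (edgeR adjusted p = 0.0361) and STEAP1 at -0.42 (edgeR adjusted p = 0.0366), and both calls were lost without control replicate 1 (0.277 and 0.216), control replicate 2 (0.0997 and 0.179), SS replicate 1 (0.166 and 0.198) or SS replicate 2 (0.177 and 0.122). The call of CYBRD1 in SS+NAC against SS was lost without SS replicate 2 (0.174) or SS+NAC replicate 2 (0.135), and that of SLC11A2 without SS replicate 2 (0.0509).

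The 4 tested chaperone, storage and export genes include PCBP1 and PCBP2, which deliver iron to ferritin. In SS PCBP1 rose by 0.35, a call lost without control replicate 1 (edgeR adjusted p = 0.0947) and with the offset (0.361). PCBP2, the most abundant (443 TPM), rose by 0.28 in SS (edgeR adjusted p = 0.0126, but 0.151, 0.0645 and 0.0677 without control replicate 1, control replicate 2 and SS replicate 2) and by 0.34 with the offset (edgeR adjusted p = 0.00999, but from 0.0719 to 0.145 without either control library or either SS library). Between SS+NAC and SS PCBP1 was at -0.44 and PCBP2 at -0.25, the latter not called by edgeR without control replicate 1 (adjusted p = 0.0669), SS replicate 1 (0.0522), SS replicate 2 (0.0940) or SS+NAC replicate 2 (0.0866). With the offset PCBP1 was at -0.23 and not called (edgeR adjusted p = 0.0598), and PCBP2 was called at -0.32 (edgeR adjusted p = 0.0107, but 0.0572 and 0.116 without SS replicates 1 and 2). FBXL5, part of the ligase that marks IREB2 protein for degradation when iron is present, was at 0.16 in SS and -0.15 in SS+NAC against SS, neither called. With the offset it was called at 0.30 and -0.29 (edgeR adjusted p = 0.0394 and 0.0331), but not without SS replicate 1 (0.118 and 0.0798), SS replicate 2 (0.239 and 0.235), control replicate 1 (0.223 and 0.0678) or control replicate 2 (0.219 and 0.0683), nor, against SS, without SS+NAC replicate 1 (0.0653).

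Of 8 tested genes of acyl-CoA synthesis and lipid peroxidation, AIFM2 rose and ACSL3 fell in SS against control, with 40.0% of all genes called. AIFM2, a reductase that counters lipid peroxidation, was at 0.23 (edgeR adjusted p = 0.0414, but 0.15 and 0.158 without control replicates 1 and 2, and 0.0501 and 0.253 without SS replicates 1 and 2). With the offset it was at 0.30 (edgeR adjusted p = 0.0394, but 0.211 and 0.222 without control replicates 1 and 2, and 0.0906 and 0.261 without SS replicates 1 and 2). ACSL3 was at -0.56 in SS against control and 0.61 in SS+NAC against SS, called without the offset and not with it. LPCAT3, the most abundant (43.1 TPM), was not called in any comparison. CDC42BPA, 1 of the 9 tested transcripts in the list with a known iron-responsive element, has an effective length of 10735 bases, and it was at -0.68 and 0.59 in these comparisons, again called only without the offset. Of the same 9, FTL and FTH1 rose and CDC42BPA, TFRC, EPAS1 and CDC14A fell in SS against control, where 40.0% of all genes were called. None of the 9 was called with the offset in that comparison, and EPAS1 turned from -0.26 to 0.043. In edgeR the call of EPAS1 was lost without control replicate 1 (adjusted p = 0.169), control replicate 2 (0.183) or SS replicate 2 (0.281), and that of CDC14A without control replicate 1 (0.149), control replicate 2 (0.133), SS replicate 1 (0.0761) or SS replicate 2 (0.120). In SS+NAC against SS, 4 of the 9 rose: TFRC, CDC42BPA, EPAS1 at 0.56 and SLC11A2, whose call by edgeR was lost without SS replicate 2 (adjusted p = 0.0509), against 23.1% of all genes. With the offset EPAS1 was at 0.27 (edgeR adjusted p = 0.0518) and SLC11A2 at 0.30 (edgeR adjusted p = 0.0613) in SS+NAC against SS, neither called. The calls of FTH1, FTL and TFRC with the offset in the comparisons of SS+NAC are given above.

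**Figure D4:**
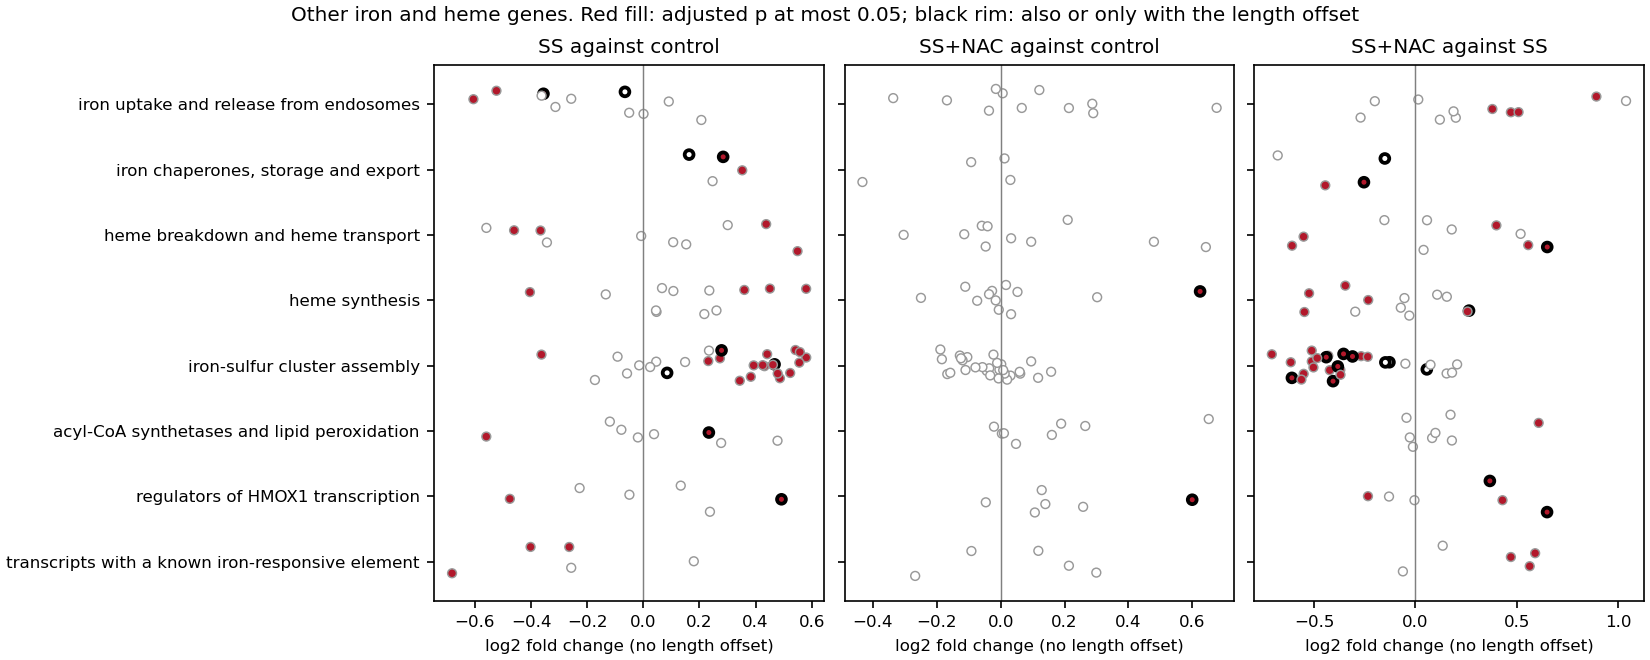
Log2 fold change without the length offset of the tested genes of the 8 lists, the 10 iron genes left out, 1 point per gene spread vertically at random within its list. Red points have an edgeR adjusted p of at most 0.05 without the offset, and black rims mark the same with the offset. Iron-sulfur cluster assembly lies mostly to the right in SS against control (18 of 28 called higher) and to the left in SS+NAC against SS (20 called lower), and in SS+NAC against control only ALAS1 and MAFG are red.

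Promoters of 8 of the 10 iron genes were found in the RefSeq table on GRCh38.p14, from 250 bases before to 50 bases after the start; HMOX1 and FTH1 had no entry. The core of the antioxidant response element, TGACNNNGC on either strand, was present only in NCOA4 among the 8, against 13.3% of 35116 promoters. The letters CACGTG (E-box) were in none of the 8, against 7.3% of promoters. ACGTG, which is part of that E-box and the core of the hypoxia response element, was in FTL and TFRC, against 21.4%. These are matches of letters in a short window and say nothing of binding.

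The genes whose pattern over the 6 libraries was most like that of 3 of the iron genes were found among the 9527 genes that averaged 10 CPM or more, by the root mean square difference of log2 CPM centred on each gene's mean. For HMOX1 they were CEBPB (0.0600), SQSTM1 (0.0623), XBP1 (0.0773), PGGHG (0.0834) and EPHX1 (0.0841), against a spread of 0.350 of HMOX1 itself. SQSTM1, which encodes the autophagy receptor p62, had group means of 440 CPM in control, 586 in SS and 801 in SS+NAC. For FTH1, with a spread of 0.218, they included HLA-B (0.0303), HLA-C (0.0351), MGST1 (0.0390) and BTG1 (0.0426). For TFRC, with a spread of 0.305, they were ADAM17 (0.0402), USPL1 (0.0498), ENTPD5 (0.0519), CREB3L2 (0.0525) and ANTXR1 (0.0533), all with effective lengths from 4045 to 7268 bases.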

How the data were processed

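RNA-seq was done on 6 KHM-5M libraries, 2 for each group named in the labels. The authors filtered single-end reads with SOAPnuke, mapped them with HISAT2 2.0.4 (Bowtie2 2.2.5 is also named) and deposited expected counts per gene from RSEM 1.2.12. TPM and FPKM values in the deposited table were made by the authors with RSEM. The table's comparison columns hold log2 fold changes, p-values and q-values, by their names from DESeq2, and were not used. The annotation release is not given in the sources used here. Gene positions come from GENCODE release 29 on GRCh38.

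Expected counts were rounded, filtered with filterByExpr (14005 genes) and scaled by TMM. All 6 libraries were fitted together with edgeR 4.0.16 (R 4.3.3), groups were compared by the quasi-likelihood test, and p-values were adjusted over all tested genes by the Benjamini-Hochberg method. Genes with an adjusted p no larger than 0.05 were called. The biological coefficient of variation was 6.74%. Standard errors are the log2 fold change over the root of the F statistic. TPM was used to compare genes and CPM to compare libraries; a gene with few counts, such as SLC40A1, carries a large counting error.

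The length offset is a lowess fit (span 0.3), in each library, of the deviation of log2 CPM (prior count 2) from the gene's mean on log effective length. Replicates differed by more than sampling noise (chi-square per degree of freedom 3.10 in control, 7.35 in SS and 12.2 in SS+NAC) and were kept apart. The alternatives were DESeq2 1.42.0 size factors and Wald test, no filter or at least 10 counts in every library, only the libraries compared, the replicate block, the length offset, both together, and leaving out each library, for which a lone library is assumed to vary like the other groups. Leaving out each library with the offset was added after seeing the data. The fit was tested on simulated data.

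The members and lists were chosen with earlier results of these data known. From the lists, up to 5 called genes higher and 5 lower per comparison with the largest change, averaging 1 CPM or more in a group, were to be named, with the most abundant gene of each list and ALAS1, HMOX2, BLVRA, FBXL5, PCBP1, FLVCR1, SLC48A1, BACH1, NFE2L2 and KEAP1. FDX1, and genes named only to spell out a small count, were chosen after their values were seen. For HMOX1, FTH1 and TFRC up to 5 genes of most like pattern were named. Some genes that met these rules are not named. Figures were made with Python 3.11.15, pandas 2.3.3, numpy 2.4.6 and matplotlib 3.10.9.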

Additional observations from a re-analysis of the deposited data

How the results depend on the processing

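Over the 14 alternatives listed in advance and the 6 added after seeing the data, HMOX1 was called in both comparisons of SS+NAC. DESeq2 size factors, the DESeq2 test, either filter on low counts and the use of only the compared libraries left the counts of called genes within 1.5 times. The length offset moved the genes called from 5609 to 1292 in SS against control and from 5985 to 2019 in SS+NAC against SS, and the iron genes called in SS against control from 7 to 1. With 1 library left out, with or without the offset, genes called ranged from 213 to 6579 in SS against control, from 61 to 1449 in SS+NAC against control and from 343 to 6339 in SS+NAC against SS. Iron genes called ranged from 0 to 7, from 1 to 5 and from 1 to 5. The fits with 0, those with the offset and without a control or an SS library, had 1 to 4 iron genes at an unadjusted p under 0.05 in edgeR. The causes were not tested. Genes with few counts, such as SLC40A1, are limited by depth.

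The labels do not say that the replicate numbers mark a shared origin, and the numbers were not used as pairs. The differences between replicates 1 and 2 correlated across genes at 0.113 (control and SS), -0.105 (control and SS+NAC) and -0.175 (SS and SS+NAC). With the number as a replicate block, genes called were 4857, 211 and 5136, and in SS+NAC against control 1 iron gene, HMOX1, was called in place of 2, HMOX1 and FTH1. With the block and the offset together, genes called were 851 in SS against control, with 0 iron genes by edgeR (3 at an unadjusted p under 0.05), and 1366 in SS+NAC against SS; in SS+NAC against control HMOX1 and FTH1 were called in place of HMOX1, FTH1 and FTL.

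Some log2 fold changes turned sign. With the offset, and with the block and the offset, FTL went to -0.0179 and -0.0178 in SS against control and to 0.326 and 0.326 in SS+NAC against SS, IREB2 to 0.0126 and 0.0143 in SS+NAC against control, and NCOA4 to -0.0571 and -0.0573 in SS+NAC against SS. Between SS+NAC and control ACO1 was at -0.00654 with DESeq2 size factors and -0.0105 with the DESeq2 test, and IREB2 at 0.00410 with at least 10 counts in every library and 0.00151 with only the compared libraries.

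With 1 library left out, with or without the offset, log2 fold changes in SS against control ranged from -0.00805 to 0.453 for FTH1, from -0.0260 to 0.523 for FTL and from -0.233 to 0.33 for SLC40A1. For SS+NAC against control they ranged from -0.102 to 0.102 for IREB2 and from -0.0418 to 0.0627 for ACO1. For SS+NAC against SS they ranged from -0.0338 to 0.516 for FTH1, from -0.231 to 0.33 for FTL, from -0.0997 to 0.590 for SLC40A1, from -0.0951 to 0.101 for NCOA4, from -0.574 to 0.0409 for BLVRB and from -0.0310 to 0.372 for ACSL4.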
